A study of Mus musculus with 4 samples.

Results

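The 10 genes described here encode receptors for dying cells and modified lipoproteins, and the soluble proteins that bridge some of those receptors to their targets. They were taken by symbol from a table of 55487 genes, and all 10 were found and tested. They are the receptor tyrosine kinases Mertk and Axl, the bridging proteins Gas6, Pros1 and Mfge8, and the scavenger receptors Stab1, Msr1, Marco, Olr1 and Scarb1. RNA was sequenced from adipocytes of the perigonadal white fat depot of male mice fed a standard diet, in a group labelled CKO and in control littermates labelled WT, with 2 libraries each. The labels do not explain the abbreviation CKO and give neither the age nor the strain. The series is titled for BLIMP1, a transcriptional repressor whose gene is Prdm1, in macrophages. Prdm1 itself had 152 and 386 reads in CKO and 514 and 1135 in WT. No source used here says which part of the gene was counted or deleted, so its level is no check of the labels.

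A dying cell displays phosphatidylserine on its surface. Gas6 and protein S (Pros1) bind that lipid with one end and TAM receptors with the other, Gas6 all of Tyro3, Axl and Mertk and protein S Tyro3 and Mertk, while Mfge8 joins the lipid to integrins, and the phagocyte then engulfs the cell. Scavenger receptors take up oxidised or acetylated lipoproteins and other altered ligands, and in fat these receptors are best known from tissue macrophages. Scarb1 differs from the rest in also being the main receptor for high density lipoprotein, from which it takes cholesteryl esters into the cell.

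Each library held 24152081 to 26742547 reads. The preparation carried adipocyte and macrophage transcripts side by side. Adipoq, the adipocyte hormone adiponectin, had 71437 and 43436 reads in CKO and 44425 and 7561 in WT. Adgre1, the macrophage surface protein F4/80, had 1384 and 3106 reads in CKO and 8071 and 31880 in WT, so that WT replicate 2 stood apart with the most macrophage and the fewest adipocyte reads. Summed over 8 macrophage markers, scaled reads were 29566 and 73563 in CKO and 151934 and 434293 in WT. The sum over 8 adipocyte markers was 778438 and 651179 in CKO and 583651 and 205306 in WT. Of that sum, Fabp4 alone held 423301 and 441099 in CKO and 305868 and 126859 in WT. Fabp4 and Pparg were higher in both CKO libraries, Lep was lower in both, and Adipoq, Plin1, Cidec, Lipe and Retn overlapped between groups. The sum over 6 endothelial markers was 50323 and 75322 in CKO and 41206 and 14946 in WT. No marker of these 3 lists was at 0 in any library. In bulk RNA, fewer cells of a type and less RNA per cell cannot be told apart. All differences below are CKO minus WT on the log2(scaled reads + 1) scale, and no gene of the 16871 tested passed an adjusted p of 0.05 in limma in either direction (0% each). At an unadjusted p under 0.05, limma gave 566 genes higher in CKO (3.35%) and 1224 lower (7.26%). Limma with voom weights gave 0 at the adjusted threshold as well. An exact two-sided permutation test of so few libraries cannot go below 0.333, so single genes were tested in limma alone.

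Of the 10 genes, 8 had a negative and 2 a positive log2 change, against 48.9% and 51.1% of all genes tested. The median change was -0.36 over the 10 genes and 0.015 over all genes tested. Both CKO libraries lay below both WT libraries for 5 genes (Axl, Stab1, Msr1, Marco and Olr1), against 26.8% of all genes, and above them for 2 (Gas6 and Scarb1), against 23.9%. The libraries of Mertk, Pros1 and Mfge8 overlapped between groups. 1 gene, Msr1, was lower at an unadjusted p under 0.05, close to the 7.26% of all genes. A log2 change of -1 or less was seen for 3 genes (Axl, Msr1 and Olr1), against 11.6% of all genes.

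**Figure D1:**
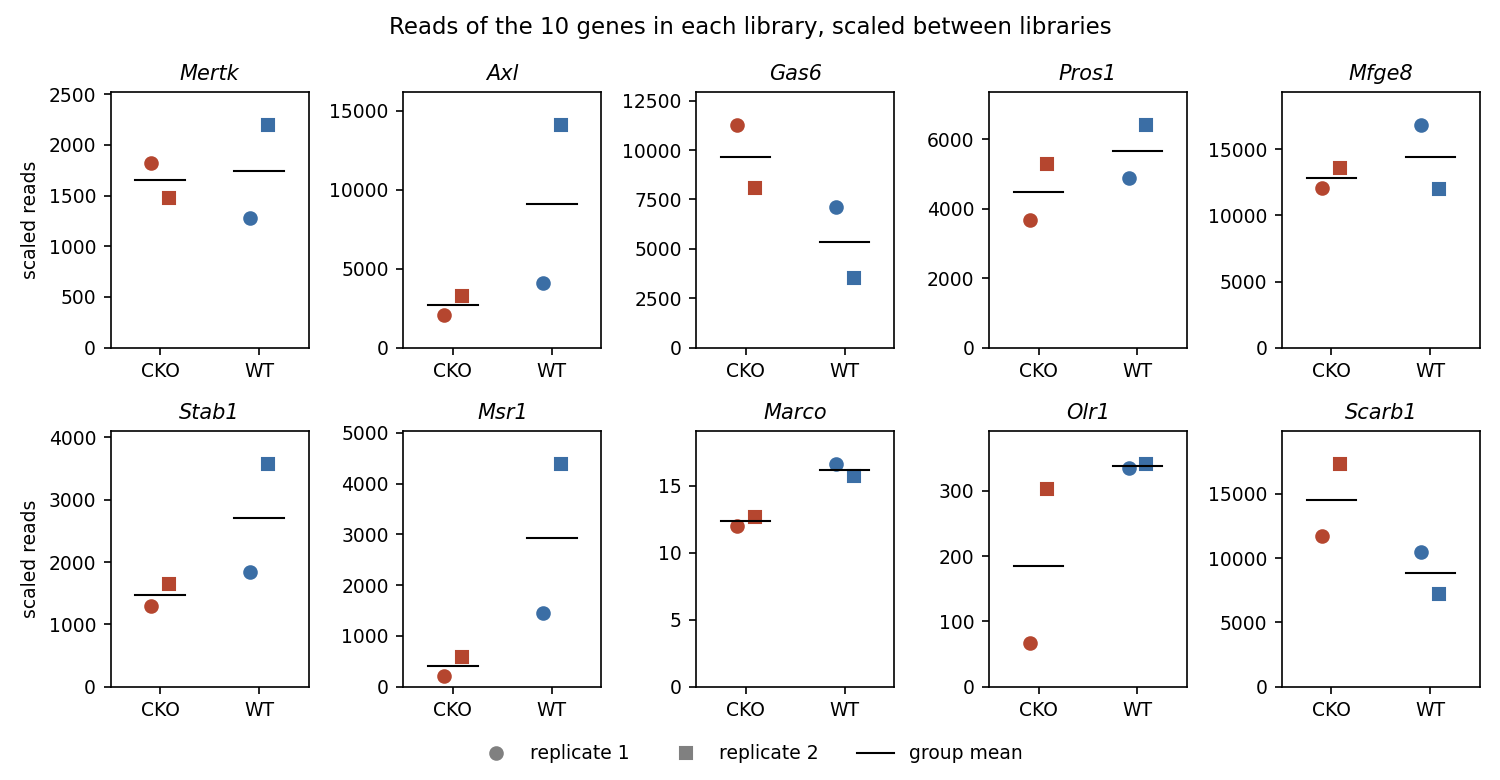
Reads of each gene in each library after scaling between libraries (vertical axis, from 0), for CKO (left, red) and WT (right, blue), with circles for replicate 1, squares for replicate 2 and a line at the group mean. Axl, Stab1 and Msr1 were highest in WT replicate 2, Gas6 and Scarb1 were higher in both CKO libraries, and Mertk, Pros1 and Mfge8 overlapped.

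**Figure D2:**
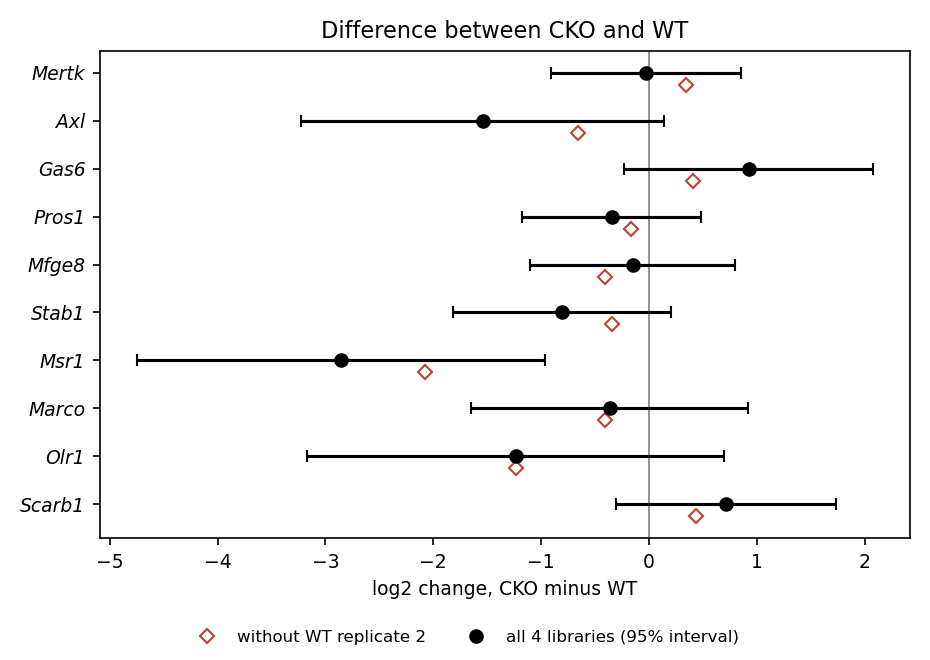
Log2 change of each gene, CKO minus WT (horizontal axis), from all 4 libraries with the 95% interval of the limma fit (black) and without WT replicate 2 (open diamonds). Of the 10 intervals only that of Msr1, from -4.75 to -0.96, excludes 0. Without WT replicate 2 the values of Axl, Gas6, Pros1, Stab1, Msr1 and Scarb1 lie closer to 0. Those of Mertk, Mfge8 and Marco lie farther from it, and that of Olr1 is nearly unchanged.

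RefSeq promoter sequences of GRCm38.p6 were matched for 8 of the 10 genes. Msr1 and Scarb1 had none in the table. Below are the 250 bases before the start of Axl and Mertk, the sister receptors described next, of Gas6, a ligand of both, and of Olr1, whose promoter holds a letter match to the core motif of BLIMP1. They are written 5′ to 3′ on the strand of the gene, and capitals mark matches to the motifs described after them. The regions are chr7:25788734-25788983 on the minus strand for Axl, chr2:128698665-128698914 on the plus strand for Mertk, chr8:13494536-13494785 on the minus strand for Gas6 and chr6:129507166-129507415 on the minus strand for Olr1.
Axl: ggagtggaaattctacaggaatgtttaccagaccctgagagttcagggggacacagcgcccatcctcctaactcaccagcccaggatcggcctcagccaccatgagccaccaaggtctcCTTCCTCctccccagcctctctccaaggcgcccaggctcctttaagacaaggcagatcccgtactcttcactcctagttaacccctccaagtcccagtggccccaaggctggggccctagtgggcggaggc
Mertk: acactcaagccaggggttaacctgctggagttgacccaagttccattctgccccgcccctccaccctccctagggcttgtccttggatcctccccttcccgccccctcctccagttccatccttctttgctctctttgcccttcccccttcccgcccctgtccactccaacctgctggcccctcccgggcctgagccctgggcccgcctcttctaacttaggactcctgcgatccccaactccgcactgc
Gas6: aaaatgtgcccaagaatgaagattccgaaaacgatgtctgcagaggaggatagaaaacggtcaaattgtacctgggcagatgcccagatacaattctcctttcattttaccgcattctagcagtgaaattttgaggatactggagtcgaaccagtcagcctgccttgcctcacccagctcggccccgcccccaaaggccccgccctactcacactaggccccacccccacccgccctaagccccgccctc
Olr1: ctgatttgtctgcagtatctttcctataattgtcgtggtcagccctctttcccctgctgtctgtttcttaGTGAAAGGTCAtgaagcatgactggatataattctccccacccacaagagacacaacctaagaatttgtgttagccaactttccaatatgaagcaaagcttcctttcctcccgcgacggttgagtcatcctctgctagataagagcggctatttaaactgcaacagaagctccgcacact

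The letters GTGAAAG (core of the BLIMP1 motif), GAGGAAG (core of the motif of PU.1, the myeloid factor encoded by Spi1) and AGGTCA (the repeat unit bound by nuclear receptors) were searched on both strands. GTGAAAG stood in 3.57% of 32851 promoters and in 1 of the 8 matched here, that of Olr1, from base -180 to -174 before the start. AGGTCA stood in 14.0% of promoters and in the same Olr1 promoter from base -175 to -170, sharing 2 bases with the other match, so that the capitals run together there. GAGGAAG stood in 10.6% of promoters and in 2 of the 8, those of Axl (bases -131 to -125, on the opposite strand) and Marco (bases -146 to -140). The Mertk, Gas6, Pros1, Mfge8 and Stab1 promoters held none of these letters in this window. A match is a run of letters and no measure of binding.

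The TAM receptors Axl and Mertk, which share the ligand Gas6, differed from each other across the libraries. Axl (chromosome 7, 25757273 to 25788705, minus strand) had 2084 and 3261 scaled reads in CKO replicates 1 and 2 and 4087 and 14076 in WT replicates 1 and 2. The groups did not overlap, and WT replicate 2 stood far above the other WT library. The mean was 2672 ± 832 in CKO against 9081 ± 7063 in WT (SD, n = 2 each). The log2 change was -1.54 (SE 0.65, 95% interval -3.22 to 0.14), with an adjusted p of 0.459 in limma. Without WT replicate 2 it was -0.66 (adjusted p 0.858 in limma). Without WT replicate 1 it was -2.44 with an adjusted p of 0.0444, in a fit that assumes the remaining WT library to have the spread of the CKO pair.

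Mertk (chromosome 2, 128698956 to 128802894, plus strand), the TAM receptor used as a marker of tissue macrophages, had 1826 and 1481 scaled reads in CKO and 1283 and 2193 in WT. Both CKO values lay between the WT values. The mean was 1654 ± 244 in CKO against 1738 ± 643 in WT (SD, n = 2 each), and the log2 change was -0.029 (SE 0.34, 95% interval -0.91 to 0.85, adjusted p 0.975 in limma). The interval leaves room for changes of nearly 1 log2 unit in either direction. Without WT replicate 2 the change was 0.35, and it was also positive without CKO replicate 2 and under the 3 other scalings tried.

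Within each library, which needs no scaling, the ratio of Axl to Mertk reads was 1.14 and 2.20 in CKO and 3.18 and 6.42 in WT. The groups did not overlap, but the ratio of 2.20 in CKO replicate 2 lay nearer to WT replicate 1 than the WT libraries lay to each other. Tyro3, the third TAM receptor, had only 27 and 28 reads in CKO and 20 and 9 in WT, a log2 change of 0.85 (SE 0.59, adjusted p 0.540 in limma). On a per-length scale, Axl stood at 20.8 ± 6.47 RPKM (reads scaled by exon length and library depth) in CKO and 70.6 ± 54.9 in WT (SD, n = 2 each). Mertk stood at 14.9 ± 2.20 in CKO and 15.7 ± 5.80 in WT on that scale. In CKO replicate 1 alone, Axl was at 16.2 and Mertk at 16.5 RPKM, so that the receptors stood level there.

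**Figure D3:**
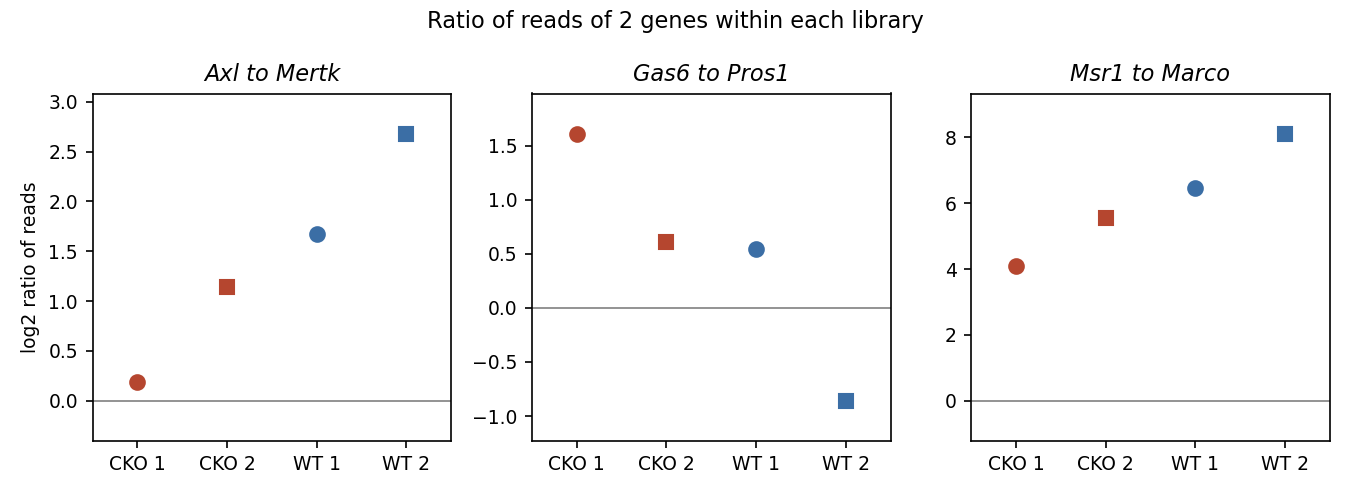
Log2 ratio of the reads of 2 genes within a library (vertical axis), for CKO (red) and WT (blue) libraries, with 0 marking equal reads. The Axl to Mertk ratio was 0.19 and 1.14 in CKO and 1.67 and 2.68 in WT, and the Gas6 to Pros1 ratio was below 0 in WT replicate 2 alone, at -0.86.

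The bridging protein Gas6 (chromosome 8, 13465374 to 13494490, minus strand) was higher in both CKO libraries, opposite to its receptor Axl. It had 11252 and 8069 scaled reads in CKO and 7134 and 3532 in WT. CKO replicate 2 and WT replicate 1 were close, and the widest gap lay between CKO replicate 1 and WT replicate 2. The mean was 9660 ± 2251 in CKO against 5333 ± 2547 in WT (SD, n = 2 each), with a log2 change of 0.92 (SE 0.45, 95% interval -0.23 to 2.08, adjusted p 0.460 in limma). Without WT replicate 2 the change was 0.41, and without WT replicate 1 it was 1.43 (adjusted p 0.0631 in limma). Gas6 overlaps Tmem255b on the opposite strand, which had 389 and 930 reads in CKO and 503 and 194 in WT. Whether reads were counted by strand is not given here.

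Pros1 (chromosome 16, 62854307 to 62929346, plus strand) encodes protein S, an anticoagulant that is also a ligand of Tyro3 and Mertk. It had 3674 and 5273 scaled reads in CKO and 4896 and 6399 in WT, with overlapping groups and a log2 change of -0.35 (SE 0.32, 95% interval -1.18 to 0.48, adjusted p 0.636 in limma). The change was -0.095 without CKO replicate 1, -0.61 without CKO replicate 2, -0.55 without WT replicate 1 and -0.16 without WT replicate 2. The ratio of Gas6 to Pros1 reads within a library was 3.06 and 1.53 in CKO and 1.46 and 0.552 in WT. Gas6 reads thus exceeded Pros1 reads in every library but WT replicate 2, a statement on reads and not on molecules, since Gas6 has 2548 and Pros1 4088 exonic bases.

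Mfge8 (chromosome 7, 79133768 to 79149060, minus strand), the bridge to integrins, varied least among the receptors and ligands for dying cells, with a highest value 1.40 times the lowest. It had 12070 and 13576 scaled reads in CKO and 16811 and 12030 in WT, and WT replicate 2 had the lowest value. The log2 change was -0.15 (SE 0.37, 95% interval -1.10 to 0.79, adjusted p 0.863 in limma), and it was 0.084 without WT replicate 1 and -0.40 without WT replicate 2. Per length, Gas6 and Mfge8 had the highest means of the 10 genes in both groups. Gas6 was at 148 ± 34.5 RPKM in CKO and 81.8 ± 39.1 in WT, and Mfge8 was at 107 ± 8.87 in CKO and 120 ± 28.2 in WT (SD, n = 2 each). In WT these levels, and that of Axl at 70.6, overlapped between libraries. Pros1 was at 42.8 ± 10.8 RPKM in CKO and 54.0 ± 10.2 in WT (SD, n = 2 each), below Mfge8 in every library.

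Among the scavenger receptors, Msr1 (chromosome 8, 39581685 to 39642673, minus strand) had the largest difference of the 10 genes. It encodes the macrophage scavenger receptor for acetylated and oxidised low density lipoprotein. Msr1 had 205 and 590 scaled reads in CKO and 1458 and 4377 in WT, so the libraries of each group also differed widely among themselves. The mean was 398 ± 272 in CKO against 2918 ± 2064 in WT (SD, n = 2 each). The log2 change was -2.86 (SE 0.73, 95% interval -4.75 to -0.96), with an unadjusted p of 0.0118 and an adjusted p of 0.459 in limma. It was -2.07 without WT replicate 2 (adjusted p 0.768 in limma). Without WT replicate 1 it was -3.65 (adjusted p 0.0465 in limma), again with a lone WT library.

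Stab1 (chromosome 14, 31139013 to 31168641, minus strand), stabilin-1, is a multifunctional clearance receptor of resident macrophages and sinusoidal endothelium. It had 1299 and 1650 scaled reads in CKO and 1839 and 3568 in WT. The groups did not overlap, though CKO replicate 2 and WT replicate 1 were near each other, and the log2 change was -0.81 (SE 0.39, 95% interval -1.81 to 0.20, adjusted p 0.461 in limma). Without WT replicate 2 it was -0.34 and without WT replicate 1 it was -1.29. The opposite-strand gene Nt5dc2, which overlaps Stab1, had 295 and 383 reads in CKO and 587 and 2093 in WT. The related receptor gene Stab2 had 20 and 69 reads in CKO and 93 and 299 in WT, a log2 change of -2.26 (SE 0.83, adjusted p 0.459 in limma).

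Olr1 (chromosome 6, 129485244 to 129507165, minus strand) encodes LOX-1, the lectin-like receptor for oxidised low density lipoprotein. It had 67.1 and 303 scaled reads in CKO and 334 and 341 in WT. The difference lay in CKO replicate 1 alone, since CKO replicate 2 stood near both WT libraries. The log2 change of -1.24 (SE 0.75, 95% interval -3.17 to 0.70, adjusted p 0.509 in limma) was -0.17 without CKO replicate 1 and -2.31 without CKO replicate 2.

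Marco (chromosome 1, 120474538 to 120505024, minus strand), a collagen-like receptor best known from alveolar and marginal zone macrophages, was barely detected. It had 12 and 14 reads in CKO and 16 and 15 in WT. Over the groups, 26 reads in CKO against 31 in WT gave a scaled ratio of 0.764 with a 95% exact binomial interval of 0.436 to 1.33, which covers counting error only. At this depth no difference was detectable, although the values did not overlap. Msr1 and Marco belong to the same class of scavenger receptor, and Msr1 reads exceeded Marco reads 17.1-fold and 46.5-fold in CKO and 87.8-fold and 278-fold in WT.

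Scarb1 (chromosome 5, 125277087 to 125341094, minus strand) was the 1 scavenger receptor of the 5 with a positive change. It had 11723 and 17306 scaled reads in CKO and 10450 and 7183 in WT. The groups did not overlap, but CKO replicate 1 and WT replicate 1 were close. The mean was 14515 ± 3948 in CKO against 8817 ± 2310 in WT (SD, n = 2 each), with a log2 change of 0.72 (SE 0.40, 95% interval -0.30 to 1.74, adjusted p 0.482 in limma). The change was 0.44 without WT replicate 2, 0.43 without CKO replicate 2 and 0.99 without CKO replicate 1. Per length Scarb1 stood at 66.8 ± 18.2 RPKM in CKO and 40.6 ± 10.6 in WT (SD, n = 2 each). The other scavenger receptors averaged 5.61 (Stab1), 2.45 (Msr1), 2.02 (Olr1) and 0.251 (Marco) in CKO, and 10.3, 18.0, 3.69 and 0.329 in WT in the same order.

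The order of the libraries separated these genes further. The macrophage list was lowest in CKO replicate 1, then CKO replicate 2, WT replicate 1 and WT replicate 2. Axl, Stab1, Msr1 and Olr1 followed that order, as did 17% of all genes tested, and Gas6 followed the reverse, as did 10.1%. WT replicate 2 was the highest library for 6 of the 10 genes. Scarb1 followed the order of the endothelial list, lowest in WT replicate 2 and highest in CKO replicate 2. The share of all genes in that order was not computed. The part of the macrophage, adipocyte or endothelial reads in these differences was not tested.

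Reads were also set against the macrophage reads of the same library, as a description without a test. Per 1000 reads of the 8 macrophage markers, of which Lyz2 alone made up 59.2% to 71.2%, Msr1 had 6.95 and 8.02 reads in CKO and 9.60 and 10.1 in WT. The highest Msr1 value was 1.45 times the lowest on this scale, against 21.3 times in scaled reads. Per 1000 Adgre1 reads, Msr1 stood at 148 and 210 in CKO and 174 and 131 in WT, and the groups overlapped. Axl per 1000 macrophage list reads was at 70.5 and 44.3 in CKO and 26.9 and 32.4 in WT, so it lay higher in CKO on this scale, opposite to its scaled reads. Stab1 was at 43.9 and 22.4 in CKO and 12.1 and 8.21 in WT, likewise turned round. The marker sum was itself lower in CKO, so a gene with equal scaled reads in both groups comes out higher in CKO here. Mfge8 and Pros1, whose scaled reads overlapped between groups, averaged 296 and 98.0 in CKO against 69.2 and 23.5 in WT. Msr1 alone of these genes had a lower mean in CKO on this scale. The share of all genes that turn in this way was not computed. Mertk was at 61.8 and 20.1 in CKO and 8.45 and 5.05 in WT. Gas6 and Scarb1 spread most, with a highest value 46.8 and 24.0 times the lowest. Olr1 was at 2.27 and 4.11 in CKO and 2.20 and 0.784 in WT. Both CKO values lay above both WT values on this scale, opposite to its scaled reads, though CKO replicate 1 and WT replicate 1 were nearly equal.

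**Figure D4:**
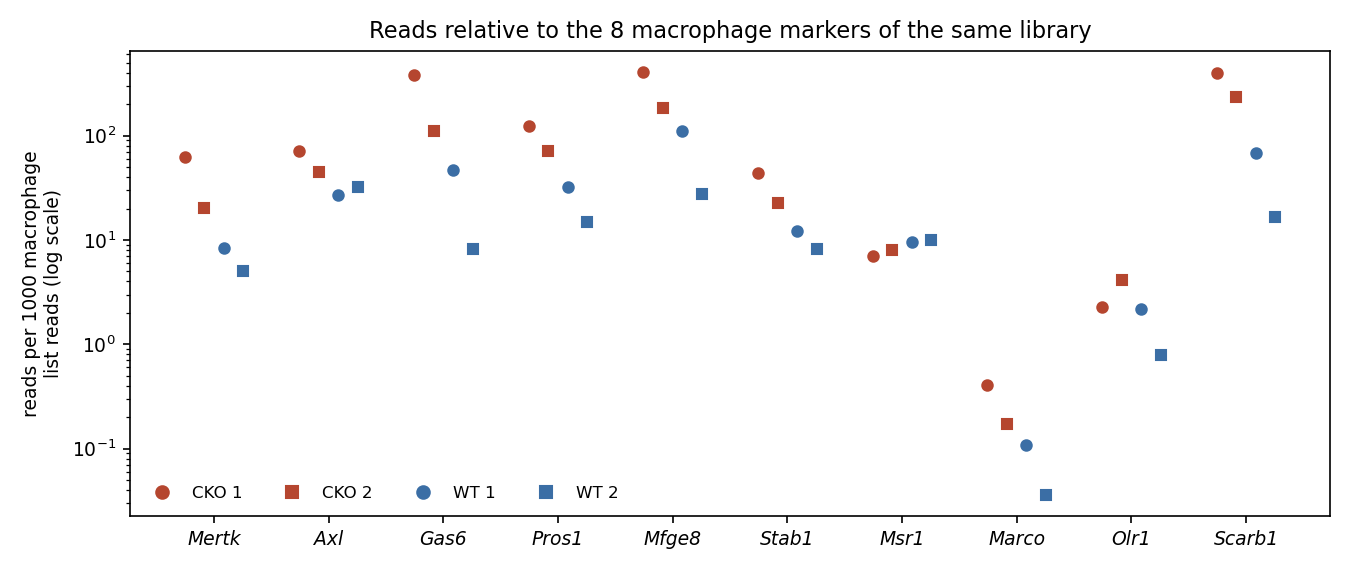
Reads of each gene per 1000 reads summed over 8 macrophage markers in the same library (vertical log axis), with CKO libraries in red left of WT libraries in blue. Msr1 lies between 6.95 and 10.1 in all 4 libraries, while Mertk, Gas6, Mfge8 and Scarb1 are lowest in WT replicate 2 and highest in CKO replicate 1.

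Other genes of the engulfment pathway were mostly lower in CKO, without a gene past the adjusted threshold. Of 29 listed genes, 27 were tested, 19 had a negative and 8 a positive change (median -0.73), against 48.9% negative and a median of 0.015 over all genes tested. At an unadjusted p under 0.05 in limma there were 12 lower and 3 higher, against 7.26% and 3.35% of all genes. The 12 became 2 without CKO replicate 1, 4 without CKO replicate 2 and 6 without WT replicate 2, and the 3 became 1, 2 and 1. The median was -0.33 without CKO replicate 1, -1.11 without CKO replicate 2, -1.18 without WT replicate 1 and -0.30 without WT replicate 2, where the negative changes were 18. The lowest unadjusted p among lower genes belonged to Sirpa (-2.79, SE 0.72), the inhibitory receptor for the don't-eat-me signal CD47. Cd300lb (-3.41, SE 0.91), a lipid-binding receptor of myeloid cells, and Trem2 (-3.89, SE 1.11), a lipid receptor of macrophages, came next. The C1q chains C1qa, C1qb and C1qc, which coat dying cells, were at -1.85, -2.36 and -2.14. Gulp1, an adaptor that binds engulfment receptors such as Lrp1, had 1350 and 1247 reads in CKO and 456 and 197 in WT, a log2 change of 1.98 (SE 0.45, adjusted p 0.459 in limma). Cd300lf (1.64, SE 0.58) and Scarf1 (1.06), an endothelial scavenger receptor, were the next genes in that direction. Cd300lf had only 18 and 37 reads in CKO and 8 and 6 in WT. All 8 macrophage markers had negative changes in the same libraries (median -2.54, and -1.77 without WT replicate 2), and their part in these list values was not tested.

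A list of 17 scavenger receptor genes, all tested, shared Cd36, Lrp1, Stab2 and Scarf1 with the engulfment list and Cd68 with the macrophage markers. Its counts are therefore not separate from those above. In it 12 had a negative and 5 a positive change (median -0.33, against 0.015 over all genes tested), and 0 passed the adjusted threshold. In limma 6 were lower and 2 higher at an unadjusted p under 0.05, against 7.26% and 3.35% of all genes. Lrp1, Stab2 and Cd68 were among the 6, and Scarf1 was among the 2. The 6 became 1 without CKO replicate 1 and 3 without CKO replicate 2. The 2 became 0, 1, 3 and 0 without CKO replicates 1 and 2 and WT replicates 1 and 2 in turn. The median was -0.54 without WT replicate 1 and -0.21 without WT replicate 2. Cd68, a lysosomal scavenger receptor and macrophage marker, was at -3.22 (SE 0.86) and Cxcl16, a chemokine that also binds oxidised lipoprotein, at -1.53 (SE 0.53). Scara5, a ferritin receptor, had 2016 and 754 reads in CKO and 378 and 205 in WT, a log2 change of 2.01 (SE 0.62, adjusted p 0.459 in limma). Scarf1 also stands in this list, and Scarf2 was at 0.68 (SE 0.39). Cd36, the fatty acid and oxidised lipoprotein receptor made by adipocytes as well as macrophages, had 158318 and 197215 reads in CKO and 149734 and 174885 in WT, a log2 change of -0.0065 (SE 1.07). Its scaled reads were 158599 and 178637 in CKO and 155480 and 183882 in WT. Limma with a trend draws each variance toward that of genes of like abundance, so this SE is wider than the spread of Cd36 itself.

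The last list held enzymes, sheddases and transcription factors that act on these genes or their products, and also Abca1, Abcg1, Apoe, Lrp8 and Pdzk1. Of 18 listed, 17 were tested, 12 with a negative and 5 with a positive change (median -0.27, against 0.015 over all genes tested), and 0 passed the adjusted threshold. In limma 3 were lower and 0 higher at an unadjusted p under 0.05, against 7.26% and 3.35% of all genes. The 3 became 0 without CKO replicate 1, 2 without CKO replicate 2 or WT replicate 2 and 5 without WT replicate 1, where 2 were higher. The median was -0.14 without CKO replicate 1, -0.13 without CKO replicate 2 and -0.16 without WT replicate 2. Spi1 (-2.63, SE 0.80), a transcription factor of macrophages, and Abcg1 (-1.81, SE 0.59), a cholesterol exporter, were among the lower genes. Rxra (0.89, SE 0.50), the partner of many nuclear receptors, Pparg (0.58, SE 0.39) and Ggcx (0.28, SE 0.36) were the higher genes of smallest unadjusted p in limma. Ggcx is the vitamin K dependent carboxylase that Gas6 and protein S need to bind phosphatidylserine. The liver X receptor genes Nr1h3 and Nr1h2, known activators of Mertk transcription in macrophages, were at -0.027 (SE 0.24) and -0.11 (SE 0.25). Adam17, a protease that sheds Mertk from the cell surface, was at -1.17 (SE 0.47, adjusted p 0.459 in limma).

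**Figure D5:**
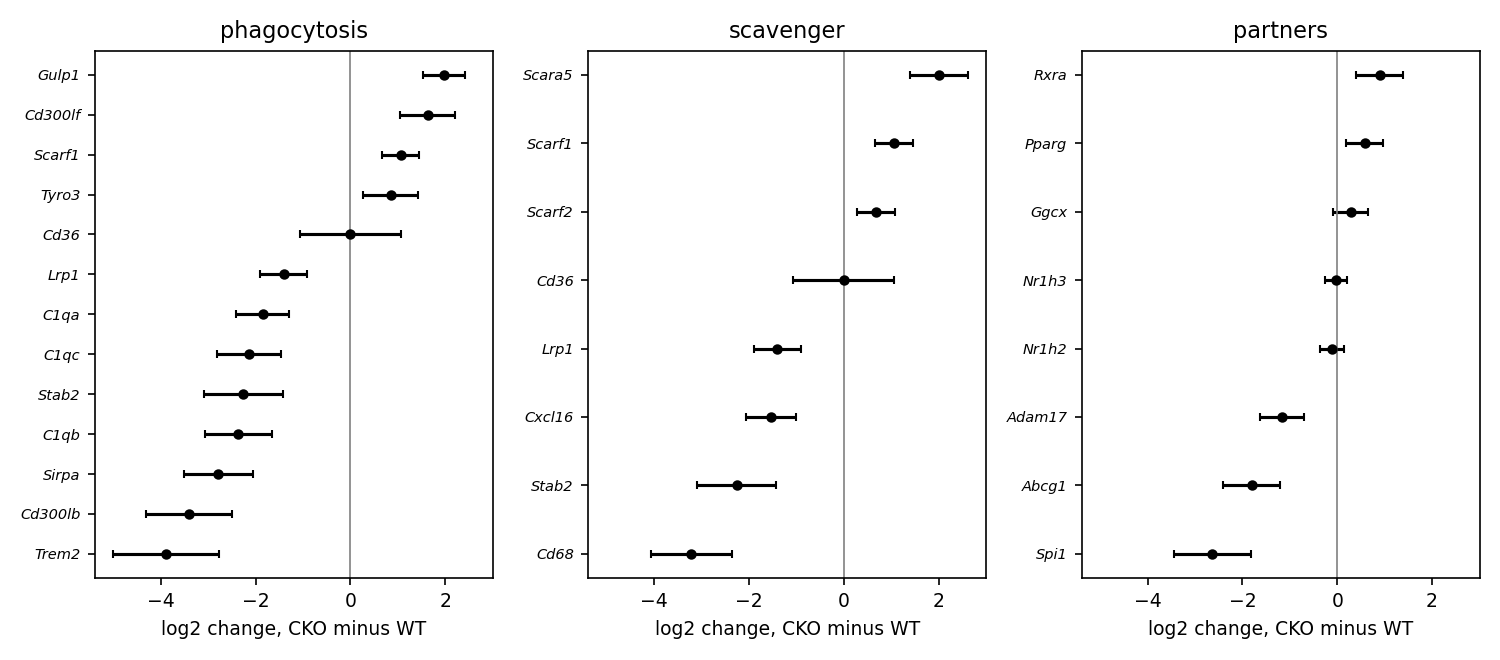
Log2 change with its SE, CKO minus WT (horizontal axis), of the genes named in the text from the 3 lists of further phagocytosis genes, scavenger receptors and partners, ordered by change. Trem2, Cd68 and Spi1 lie lowest of those shown in their lists, while Gulp1, Scara5 and Rxra lie highest.

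The genes whose values over the 4 libraries lay nearest to those of a member were sought among 12991 protein-coding genes, by the root mean square difference of centred log2 values. Nearest to Mertk were Crtc1 (0.035), Zbtb43 (0.043) and Rad18 (0.047). Nearest to Axl were Bend4 (0.043), Sap30 (0.045) and Spn (0.053). Smo (0.019), Sh3glb2 (0.027) and Pfkm (0.028) lay nearest to Gas6, and Acat3 (0.030), Nxn (0.034) and Irgm2 (0.038) to Scarb1. Acat3 was near the floor, with 9.02 and 13.6 scaled reads in CKO and 8.31 and 5.26 in WT. With 4 libraries, such likeness is a description of these libraries.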

How the data were processed

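Alignment was made with STAR 2.7.5c against GRCm38.p6, with FastQC named as well, per the submitters' processing notes. How reads were counted, with which annotation and on which strand, is not stated in the labels or header. The deposited values are on a log2 scale and are called normalised counts by the authors. In every library, raising 2 to the deposited value and subtracting 1 gave whole numbers within 0.01 for 100% of genes, and totals differed, so they are log2(reads + 1) without scaling. Recovered reads were divided by size factors (0.951 to 1.10, the median ratio over 19847 genes). Then log2(scaled reads + 1) was fitted in limma 3.58.1 (R 4.3.3) on group alone, with a trend and two-sided, for 16871 genes with a mean deposited value of at least 3 and Benjamini-Hochberg adjustment over all of them. The pseudocount of 1 understates changes of low genes. Of the identifiers, 99.3% matched GENCODE M21, which gave exon lengths and 1-based coordinates.

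Library titles bear distinct numbers, and the groups are littermates of different genotype. The labels do not say outright that libraries of 1 group came from different animals, and p-values then cover the spread between libraries, which may be technical. Replicate numbers follow record order. The members and lists were chosen with earlier results of these data known. The genes named are the 10 members, Prdm1, Adgre1, Cd68 and Adipoq, the 3 of smallest unadjusted p in each direction of each further list, and the 3 nearest to Mertk, Axl, Gas6 and Scarb1. Others were chosen after their values were seen. Some genes that this rule names are not reported here. The mesothelial, fibroblast, smooth muscle and pericyte, red blood cell, neutrophil, lymphocyte and dendritic cell lists had median log2 changes of 0.011, -0.64, 0.44, 2.17, 0.21, 1.65 and 1.51, the last from 1 tested gene.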

Additional observations from a re-analysis of the deposited data

How the results depend on the processing

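The settings tried were no filter, a minimum of 6, a pseudocount of 10, unscaled values, scaling by total reads, quantile normalisation, no trend, a robust fit, voom weights, library weights and each library left out in turn. Of 139 values of the 10 genes under these, 131 kept their direction and side of the threshold. Under the 10 settings with all libraries, no gene of the table passed the adjusted threshold and the smallest adjusted p of the 10 genes was 0.431 in limma. Marco has no value at the minimum of 6. Mertk turned positive unscaled (0.10), with total reads (0.056) and with quantile normalisation (0.073). The median of all genes was then 0.147, 0.099 and 0.064, so Mertk lay below it unscaled and with total reads and above it with quantile normalisation. Leaving out a library gave -0.42 to 0.35 for Mertk and -0.40 to 0.084 for Mfge8. Over the left-out libraries, genes past the adjusted threshold ranged from 0 to 797 higher and from 0 to 920 lower, and members past it from 0 to 2, with all calls made without WT replicate 1. The cause was not tested. Counts of negative changes in the lists without each library were added after the data were seen, and stayed within 1.5 times, unlike the counts at an unadjusted p under 0.05. No paired analysis was possible because the labels give the groups no shared replicate numbers. The 95% interval of 9 of the 10 genes included 0, and read depth limits Marco.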
